A study of Mus musculus with 2 samples.

Results

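Glycolysis splits glucose into pyruvate in the cytosol, and lactate dehydrogenase can then reduce pyruvate to lactate. Hexokinase traps glucose in the cell, phosphofructokinase catalyses the committed step, and the enzymes from glyceraldehyde-3-phosphate dehydrogenase onwards harvest ATP and NADH. Mouse ES cells and the early neuroepithelium are both proliferating populations known to use glucose heavily. The 10 genes described here encode an enzyme of this pathway each: *Hk2*, *Gpi1*, *Pfkp*, *Aldoa*, *Tpi1*, *Gapdh*, *Pgk1*, *Pgam1*, *Eno1* and *Ldha*. They were chosen by symbol, with earlier results of these data known, and all 10 are among the 29311 genes listed for both samples.

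RNA levels were measured by strand-specific, single-end RNA-seq after ribo-depletion in 2 samples, 1 of ES cells and 1 of E10.5 forebrain, with no replicates. The ES cells are of the E14 strain, of WT genotype, and were grown without feeders in serum and LIF. The forebrain cells are WT, of strain B6CBAF1/J at E10.5, and the study's methods describe forebrain RNA as coming from single embryos. Values are the deposited RPKM, a read number per kb of exon with a scaling per sample that is not stated. The step that a single read contributes to low values put the depth over genes at 42774129 reads for ES cells and 59770325 for forebrain. Intervals given here are exact 95% counting intervals on reads inferred in this way. They cover counting error only, so every ratio below compares a pair of libraries without a replicate check.

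The labels were checked against marker genes. All 8 pluripotency markers were at least 2-fold higher in ES cells, and all 8 forebrain markers at least 2-fold higher in forebrain. Markers of other cell types were also higher in forebrain. At least 2-fold higher there were 8 of 8 markers of erythroid cells, 4 of 5 of endothelium, 6 of 6 of head mesenchyme and 4 of 4 of macrophages. Erythroid markers summed to 799500 RPKM in forebrain and 408 in ES cells, and took 1.12% of the forebrain reads and 0.000776% of the ES reads. Summed levels in forebrain and ES cells were 1827 and 602 RPKM for endothelium, 6643 and 59.3 RPKM for head mesenchyme, and 473 and 82.7 RPKM for macrophages. Of these markers 1 was at 0, the leukocyte gene *Ptprc* in ES cells. *Pecam1*, of the endothelial list, was higher in ES cells (551 against 317 RPKM) and made up most of the endothelial sum there. Of 4 neuronal markers, 3 were higher in forebrain, whereas *Stmn2*, which encodes a tubulin-binding protein, was higher in ES cells (6910 against 1056 RPKM). The part of these cells in the levels of glycolytic genes was not tested. In such bulk samples, fewer cells of a type and less RNA per cell cannot be told apart.

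All 10 glycolytic genes had a higher deposited value in ES cells than in forebrain. At least a 2-fold excess in ES cells was seen for 6 of them (*Hk2*, *Pfkp*, *Aldoa*, *Gapdh*, *Pgam1* and *Eno1*), and for none at least a 2-fold deficit. Over all listed genes, 23.3% were at least 2-fold higher in ES cells and 25.8% at least 2-fold lower. Among 3303 protein-coding genes that reached 1000 RPKM in ES cells or forebrain, a background closer in level, these shares were 19.6% and 13.4%. Fold differences throughout are of RPKM + 1, which makes those of low values smaller. The intervals beside them are of the ratio without the added 1. The median log2 difference (ES cells minus forebrain) of the glycolytic genes was 1.59, against -0.01 over all genes and 0.19 over the abundant protein-coding ones. Summed over the 10 genes, the RPKM was 2.20-fold higher in ES cells, and their share of reads was 0.213% there and 0.0851% in forebrain. Under 6 scalings of the samples, including the deposited one, the same 6 genes stayed past 2-fold. The scaling by the sum of all values shifted the median of all genes by -0.25 on the log2 scale, and it alone put 1 gene, *Tpi1*, below its forebrain level.

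**Figure D1:**
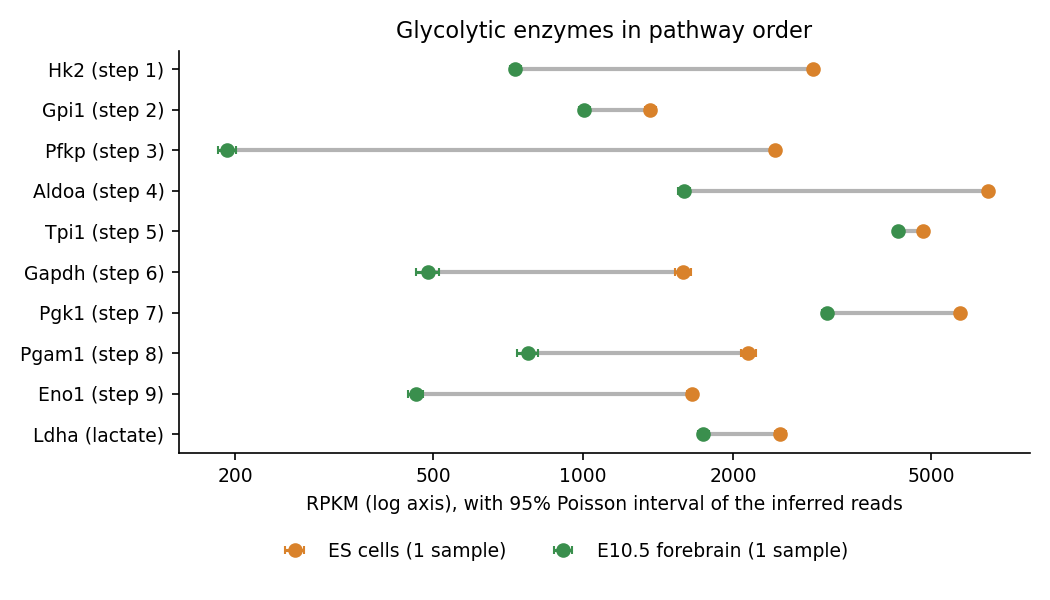
Deposited RPKM (logarithmic axis) of the 10 glycolytic genes, in the order of the pathway, with 1 point for ES cells and 1 for E10.5 forebrain and bars for 95% counting intervals. The ES value lies above the forebrain value for each gene, with the widest gap at *Pfkp* (2432 against 192 RPKM) and the narrowest at *Tpi1* (4820 against 4299 RPKM).

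The first steps consume ATP. *Hk2* (chr6:82675019-82724448 on the minus strand of NCBIM37), a hexokinase that can bind mitochondria, stood at 2894 RPKM in ES cells and 731 in forebrain, a 3.96-fold difference (3.84 to 4.09). *Gpi1* (chr7:34987141-35015308, minus strand) interconverts glucose and fructose phosphates, and had 1365 RPKM in ES cells and 1005 in forebrain. Its 1.36-fold difference (1.31 to 1.41) was among the smaller ones. *Pfkp* (chr13:6579014-6648023, minus strand), the platelet type of phosphofructokinase, had 2432 RPKM in ES cells and 192 in forebrain. At 12.6-fold (12.1 to 13.2) it differed most of the 10 genes, from 18713 inferred reads in ES cells and 2205 in forebrain. *Aldoa* (chr7:133938748-133944265, minus strand), the aldolase that cleaves fructose bisphosphate, was at 6495 RPKM in ES cells and 1594 in forebrain. This 4.07-fold difference (3.95 to 4.20) came with the highest deposited level of the 10 genes in ES cells. Reads of the near-identical entries described below are not counted in these levels. *Tpi1* (chr6:124760604-124764314, minus strand), which interconverts the triose phosphates made by aldolase, was at 4820 and 4299 RPKM, a ratio of 1.12 (1.09 to 1.15). Over the scalings this ratio ranged from 0.928 to 1.19, so *Tpi1* had no firm direction.

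The later steps return ATP. *Gapdh* (chr6:125111871-125116485, minus strand), which oxidises glyceraldehyde-3-phosphate, had 1584 RPKM in ES cells and 487 in forebrain, or 3.25-fold (3.05 to 3.47). *Pgk1* (chrX:103382439-103399038, plus strand) makes the first ATP of the payoff phase, and was at 5713 and 3089 RPKM. The 1.85-fold difference (1.80 to 1.90) left it short of 2-fold under each scaling, the highest ratio being 1.97. *Pgam1* (chr19:41986361-41993154, plus strand), the mutase that moves the phosphate of phosphoglycerate, had 2145 RPKM in ES cells and 773 in forebrain, or 2.77-fold (2.62 to 2.94). *Eno1* (chr4:149610830-149622988, plus strand), the enolase found in most tissues, stood at 1654 and 460 RPKM, or 3.59-fold (3.44 to 3.75). The ratio thus varied from step to step. *Ldha* (chr7:54096845-54110997, plus strand), the muscle-type subunit of lactate dehydrogenase, had 2491 RPKM in ES cells and 1742 in forebrain, or 1.43-fold (1.38 to 1.48).

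**Figure D2:**
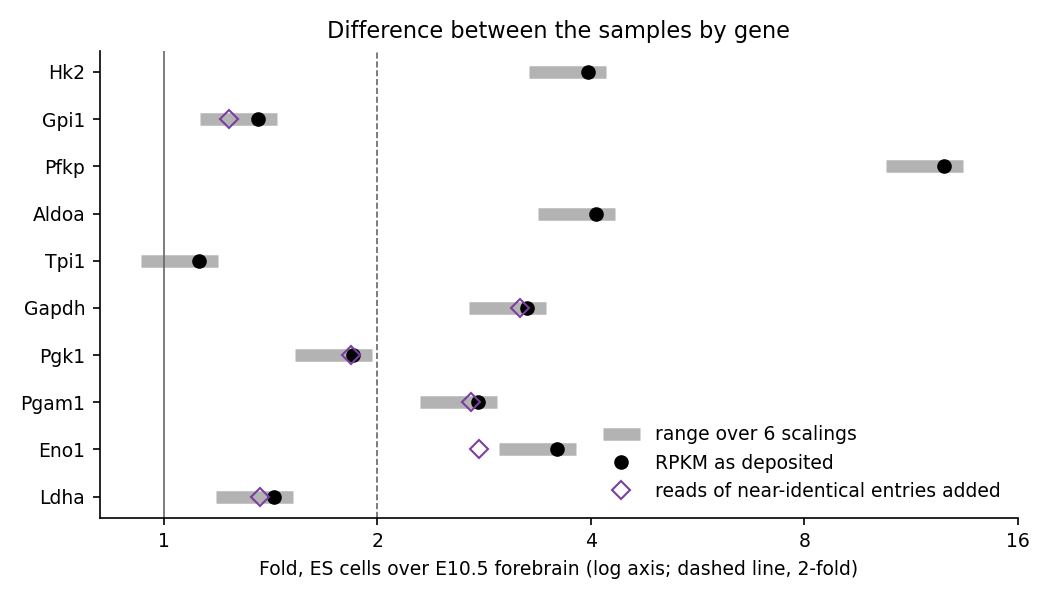
Fold of RPKM + 1, ES cells over E10.5 forebrain (logarithmic axis, dashed line at 2-fold), for each glycolytic gene, with circles for the deposited values, grey bars for the range over 6 scalings and diamonds for the ratio after adding reads of near-identical entries aligned over at least 300 bases. The bars of 6 genes lie wholly past 2-fold, while that of *Tpi1* spans 1 (0.928 to 1.19).

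The order of the levels differed between the samples. In ES cells it ran *Aldoa*, *Pgk1*, *Tpi1*, *Hk2*, *Ldha*, *Pfkp*, *Pgam1*, *Eno1*, *Gapdh* and *Gpi1*, and in forebrain *Tpi1*, *Pgk1*, *Ldha*, *Aldoa*, *Gpi1*, *Pgam1*, *Hk2*, *Gapdh*, *Eno1* and *Pfkp*. The counting intervals of *Ldha* and *Pfkp* and those of *Eno1* and *Gapdh* overlapped in ES cells, as did those of *Pgam1* and *Hk2* and of *Gapdh* and *Eno1* in forebrain. The highest gene exceeded the lowest 4.76-fold in ES cells and 22.4-fold in forebrain, where *Pfkp* stood well below the rest. Levels between genes depend on where reads shared with near-identical entries, described below, were counted. For *Pgk1* these entries held 72.7% of the summed reads in ES cells and 72.9% in forebrain, and for *Pgam1* 77.3% and 77.8%. The orders above leave them out and could differ with them. Levels between genes also depend on the length that reads are divided by. The annotated exons of *Pfkp* sum to 9395 bp and its longest coding transcript is 4145 bp, while for *Eno1* these lengths are 5379 and 2027 bp. Divided by the longest coding transcript instead, *Pfkp* moved from rank 6 to 4 in ES cells and *Eno1* from rank 8 to 5. The ratio between the samples does not depend on this length.

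Glycolytic genes are known for processed pseudogenes, copies of their mRNA inserted back into the genome, and reads from them may be assigned to either place. For each gene, the 29311 listed genes were searched for entries at least 90% identical over at least 50% of their length. Annotated genes that are not listed were left out of this search. No such listed entry was found for *Hk2*, *Pfkp*, *Aldoa* and *Tpi1*. *Pgk1* comes first. Both of its copies are listed at higher levels than the gene itself, as are those of *Pgam1* and *Gpi1* and the main ones of *Eno1*. *Pgk1-rs7* had 13638 RPKM in ES cells and 7451 in forebrain, and *Gm5537* had 13626 and 7448. Their ratios (both 1.83) lay near the 1.85 of *Pgk1*. Both entries together held 72.7% of the summed reads of the set in ES cells and 72.9% in forebrain. Of all 50-base words in the exons of *Pgk1*, 50.6% occur in these entries.

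*Pgam1* has 4 such entries, each with a single exon. To show how little separates copies from their gene, a 60-base stretch of coding exon is printed for *Pgam1* and, further on, for *Gapdh*, with capitals at bases of a copy that differ from the glycolytic gene.
Pgam1 (NCBIM37, chr19:41990202-41990261, plus strand): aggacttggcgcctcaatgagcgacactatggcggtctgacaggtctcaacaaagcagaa
Gm8910 (NCBIM37, chr3:11014858-11014917, minus strand): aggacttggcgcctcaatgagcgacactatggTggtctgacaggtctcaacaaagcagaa
Pgam1-ps2 (NCBIM37, chr7:28255249-28255308, minus strand): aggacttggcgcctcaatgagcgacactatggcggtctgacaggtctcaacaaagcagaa
Gm11203 (NCBIM37, chr11:79710949-79711008, plus strand): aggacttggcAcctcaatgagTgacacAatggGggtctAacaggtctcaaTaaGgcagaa
Pgam1-ps1 (NCBIM37, chr11:21583770-21583829, minus strand): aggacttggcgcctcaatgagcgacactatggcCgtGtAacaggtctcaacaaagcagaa
The stretch of *Pgam1-ps2* equals that of *Pgam1*, and the other entries differ at 1 to 7 of 60 bases. Their RPKM values in ES cells and forebrain were 4743 and 1731 for *Pgam1-ps2*, 3970 and 1480 for *Pgam1-ps1*, 2814 and 1040 for *Gm8910*, and 2772 and 1061 for *Gm11203*. These ratios of 2.61 to 2.74 stayed close to that of *Pgam1* (2.77). The entries held 77.3% of the summed reads in ES cells and 77.8% in forebrain, the highest share of the set of 10. *Eno1* has 3 entries, of which *Gm5506* (3800 and 1560 RPKM) and *Gm13699* (4061 and 1700 RPKM) carried nearly all reads. With them added, the *Eno1* ratio went from 3.59 to 2.78.

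*Gapdh* has 67 such entries, which held few reads.
Gapdh (NCBIM37, chr6:125112930-125112989, minus strand): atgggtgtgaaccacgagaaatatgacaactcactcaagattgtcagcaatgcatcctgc
Gm13394 (NCBIM37, chr2:28789680-28789739, minus strand): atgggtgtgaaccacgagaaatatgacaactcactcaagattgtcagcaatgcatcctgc
The pseudogene *Gm13394* is identical over this stretch. Of the 67 entries, which lie on 18 chromosomes, 62 have a single exon and none reached 100 reads. For 10 of the 67 the deposited values round to 0 reads in both samples. Copies with a value of 0 in both are not listed and could not enter. In all, the 67 entries held 190 reads in ES cells and 119 in forebrain, beside 2923 and 1339 at *Gapdh*. Even though 49.0% of the 50-base words of *Gapdh* are shared, the copies thus took 6.10% of the summed reads in ES cells and 8.16% in forebrain. Addition of these reads gave a ratio of 3.18. How reads with several best positions were counted is not given in the sources used here. Some values of these entries were above 0 but below the step of 1 read, so not all counts were whole reads. Where reads are shared, the ratios of a gene and of its entries are not separate measurements.

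*Gpi1* has 1 entry, the single-exon *Gm1840*. It had 5122 RPKM in ES cells and 4472 in forebrain, a ratio of 1.15. With its reads, the *Gpi1* ratio was 1.23. *Ldha* has 79 entries, most of which match over a short stretch only, and 8 that align over at least 300 bases. Of these, *Gm13315* (409 and 319 RPKM) and *Ldha-ps2* (239 and 182 RPKM) were higher in ES cells. *Ldha-ps* (22.3 and 118 RPKM) and *Gm15707* (74.1 and 170 RPKM) had the opposite direction, a pattern that *Ldha* itself did not show. The *Ldha* ratio was 1.37 with the reads of the 8 entries. With all 79 it was 1.77, to which 2 short RNA entries contributed most: *AL591712.1* with 1375 reads in ES cells and 5 in forebrain, and *AC164075.1* with 526 and 0. None of these sums moved a gene across 2-fold.

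**Figure D3:**
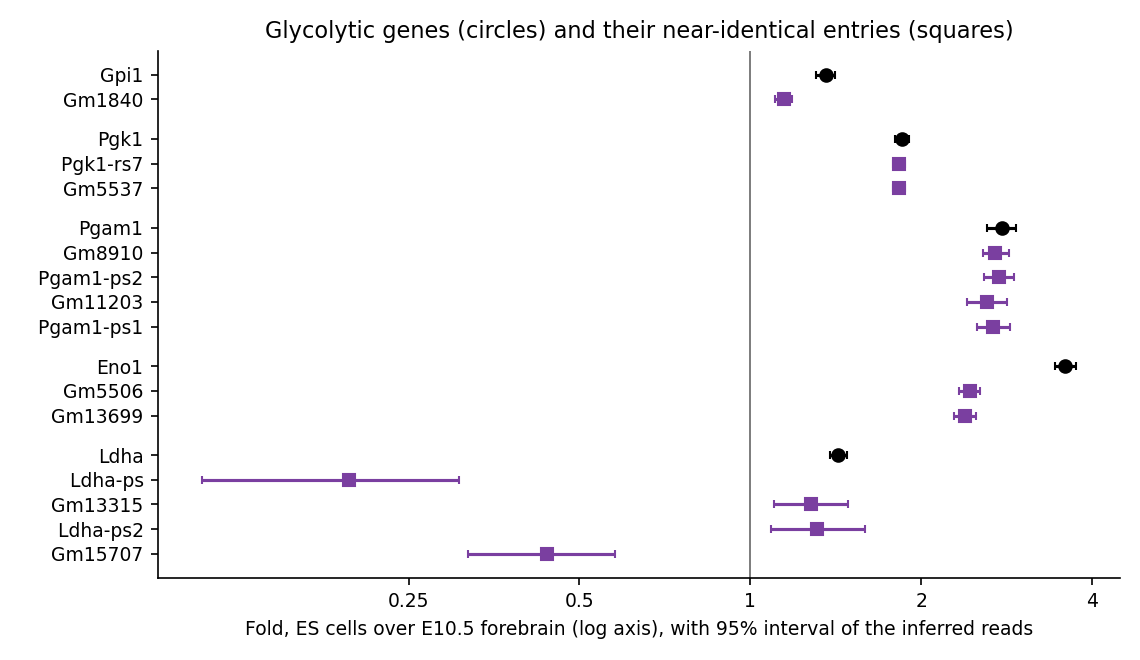
Fold of RPKM + 1, ES cells over E10.5 forebrain (logarithmic axis), of glycolytic genes (circles) and of their near-identical entries with at least 100 inferred reads in either sample (squares), with bars for 95% counting intervals. The entries of *Pgk1* and *Pgam1* lie next to their gene, those of *Eno1* lie below it, and *Ldha-ps* and *Gm15707* lie below 1.

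Reads of overlapping genes on the other strand are another limit, as the use of strand in the counting is not stated. *Gm17327* covers 16.5% of the exonic bases of *Gpi1*, and *Pitrm1*, which encodes a mitochondrial peptidase, covers 3.96% of those of *Pfkp*. *Pitrm1* had 2751 RPKM in ES cells and 2761 in forebrain, so it did not share the difference of *Pfkp*. *Spsb2* overlaps *Tpi1* by 34 bp.

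Most steps can be catalysed by more than 1 isozyme, so each gene was set against its paralogs. Of 20 listed paralogs, 3 were at least 2-fold higher in ES cells (*Aldoc*, *Ldhc* and *Ldhd*). At least 2-fold lower were 5 (*Hk3*, *Gapdhs*, *Bpgm*, *Eno3* and *Pklr*), or 6 with *Pfkm* under some scalings, such as that by the sum of values. On the deposited scale these shares of 15% and 25% stand beside 23.3% and 25.8% of all genes. The median log2 difference of the paralogs was 0.03, or -0.15 with scaling by the sum of values. Phosphofructokinase and enolase differed most in their isozymes. *Pfkp* made up 37.3% of the summed RPKM of this step in ES cells and 4.90% in forebrain. The liver type *Pfkl* had 3239 and 2071 RPKM (1.56-fold), while the muscle type *Pfkm* had 844 and 1665 and was 1.97-fold higher in forebrain. The step as a whole differed 1.66-fold, less than *Pfkp* alone. These shares and sums depend on the length used. With the longest coding transcript as the length, *Pfkp* made up 53.9% in ES cells and 9.39% in forebrain, and the step differed 2.20-fold. *Eno1* took 75.0% of the step in ES cells and 22.8% in forebrain, where the muscle enolase *Eno3* stood at 1510 RPKM against 500 in ES cells, and the neuronal enolase *Eno2* was low in both samples (31.1 and 28.9 RPKM). The enolase sum was 1.09-fold higher in ES cells and between 0.905 and 1.16 over the scalings. With the longest coding transcript as the length it was 1.71-fold higher, and *Eno1* took 87.8% and 41.9%. The sums and shares of a step, here and below, leave out reads of near-identical entries. Those of *Eno1* held 59.95% of the reads of *Eno1* and its entries in ES cells and 69.04% in forebrain. With these reads added, the *Eno1* shares would be higher in both samples, and the enolase ratio would differ.

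At lactate dehydrogenase, *Ldhb*, the heart-type subunit, had 1395 RPKM in ES cells and 1997 in forebrain, so *Ldha* made up 63.6% of the step in ES cells and 46.5% in forebrain. The summed step showed a ratio of 1.05 (0.865 to 1.11 over the scalings). With the longest coding transcript as the length, *Ldha* made up 71.0% and 54.9%, and the ratio was 1.11. *Hk2* held 88.1% of the summed RPKM of the hexokinases analysed here in ES cells and 69.6% in forebrain (80.1% and 56.7% with that length), next to *Hk1* with 387 and 283 RPKM. Aldolase, in contrast, rested almost wholly on *Aldoa* (95.7% and 98.6%), although *Aldoc*, the brain-type aldolase, showed 288 RPKM in ES cells and 21.6 in forebrain (12.8-fold, 10.7 to 16.9). The sperm-specific *Gapdhs* had 26.2 RPKM in ES cells and 101 in forebrain, and *Bpgm*, an enzyme best known from red cells, had 209 and 1020, a 4.86-fold excess in forebrain. The erythroid markers given above were also higher there, and their part in *Bpgm* was not tested. *Pgam2* (108 and 97.5 RPKM) and *Adpgk* (686 and 715 RPKM), whose enzyme phosphorylates glucose with ADP, were within 2-fold, without a direction that held over the scalings.

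Pyruvate kinase, the step between enolase and lactate dehydrogenase, is not among the 10 genes. *Pkm2*, the symbol under which the muscle and embryonic forms are listed, had 5945 RPKM in ES cells and 3302 in forebrain (1.80-fold). *Pklr*, the liver and red cell form, had 8.56 and 248 RPKM, or 26.1-fold higher in forebrain. Exons of *Hcn3* on the other strand cover 22.0% of *Pklr*. *Pkm2* made up 99.9% of the step in ES cells and 93.0% in forebrain.

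**Figure D4:**
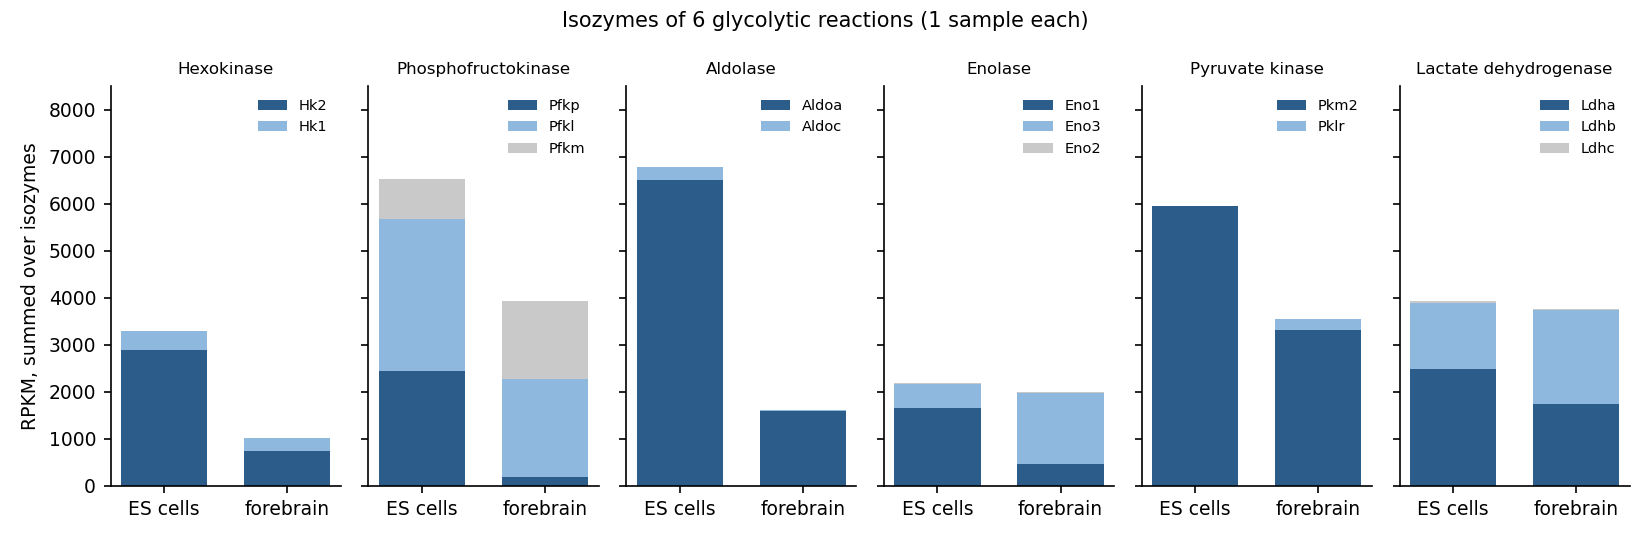
Stacked RPKM of the isozymes of 6 glycolytic reactions, with 1 bar for ES cells and 1 for E10.5 forebrain, on axes that start at 0. Reads of near-identical entries are left out. *Pfkp* is a small part of the phosphofructokinase bar in forebrain (192 RPKM) and *Eno1* of the enolase bar (460 RPKM), while *Aldoa* fills nearly all of both aldolase bars.

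Glucose enters and lactate leaves through membrane carriers. Of 13 listed transport genes, 4 were at least 2-fold higher in ES cells and 4 at least 2-fold lower, beside the 23.3% and 25.8% of all genes given above. *Slc2a3*, the high-affinity glucose transporter GLUT3, had 13403 RPKM in ES cells and 469 in forebrain. Its 28.5-fold difference (27.7 to 29.5) was wider than that of any of the 10 enzymes. The widely expressed *Slc2a1* (GLUT1) had 5048 and 2013 RPKM, or 2.51-fold. The insulin-responsive *Slc2a4* was lower in ES cells (79.5 and 252 RPKM), as was *Slc2a12* (49.0 and 127 RPKM), and *Slc2a10* had 0 reads in ES cells and 265 in forebrain (60.9 RPKM). Among the carriers of lactate, *Slc16a1* had 3083 and 1438 RPKM (2.14-fold, below 2-fold under 2 of 6 scalings), and *Slc16a3* had 695 and 402. *Bsg*, the chaperone of these carriers, had 7862 and 4288 RPKM (1.83-fold), whereas the related *Emb* had 820 and 1140.

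The PFKFB enzymes set the level of the sugar phosphate that activates phosphofructokinase. *Pfkfb1* (168 and 101 RPKM in ES cells and forebrain) and *Pfkfb2* (156 and 101) stayed within 2-fold. *Pfkfb3* had 58.4 and 111 RPKM, and *Pfkfb4* had 45.9 and 160, 3.43-fold higher in forebrain. *9630033F20Rik*, now named *Tigar*, which removes that activator, had 865 RPKM in ES cells and 128 in forebrain, or 6.74-fold. None of them reached 1000 RPKM in either sample.

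Pyruvate that is not reduced to lactate enters mitochondria and pyruvate dehydrogenase. Of 14 such genes, 6 were at least 2-fold higher in ES cells and 2 at least 2-fold lower, or 4 and 4 when the samples were scaled by their sum. On the deposited scale these are 42.9% and 14.3%, beside 23.3% and 25.8% of all genes. *Pdha1*, the catalytic subunit of the complex, had 5865 RPKM in ES cells and 2161 in forebrain (2.71-fold). *Pdk1*, a kinase that switches this subunit off, had 3045 and 456 RPKM (6.66-fold), and *Pdk4* had 54.8 and 6.07. The kinase *Pdk3* showed the other direction (617 and 1147 RPKM). The phosphatases that reverse them were split, with *Pdp1* at 73.3 and 270 RPKM and *Pdp2* at 636 and 293. So were the subunits of the pyruvate carrier, *Brp44l* (*Mpc1*) at 458 and 210 RPKM and *Brp44* (*Mpc2*) at 107 and 195. The subunits *Dlat* (1219 and 681 RPKM) and *Dld* (2461 and 3451 RPKM) were within 2-fold.

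Glucose-6-phosphate can also be diverted, and pyruvate turned back. Of 11 listed genes of the pentose phosphate pathway, 2 were at least 2-fold higher in ES cells and none at least 2-fold lower (1 with scaling by the sum of values). The 18.2% that were higher are no more than the 23.3% of all genes, while 25.8% of all genes were lower. *G6pdx*, its entry enzyme, had 779 RPKM in ES cells and 429 in forebrain, with the near-identical *G6pd2* at 818 and 525. *Rpe*, an epimerase, had 2325 and 864 RPKM (2.69-fold), while *Tkt* (4017 and 3286), *Taldo1* (2727 and 1765) and *Pgd* (569 and 735) were within 2-fold. Of 7 genes of gluconeogenesis 5 are listed. *Pck1* and *G6pc* are not listed and were left out of the counts and medians. *Fbp2*, the muscle fructose bisphosphatase, had 151 RPKM in ES cells and 1.85 in forebrain, where it rested on 3 reads (53.4-fold, 27.4 to 399). At such a low forebrain value the added 1 lowers the fold, while the interval is without it. *Pcx* (862 and 495 RPKM), *Pck2* (334 and 233) and *G6pc3* (163 and 292) differed less than 2-fold.

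HIF and MYC proteins, and the glucose-sensing partners of MLX, are known to regulate glycolytic genes. Of 15 genes of these factors and of their partners and regulators, none was at least 2-fold higher in ES cells, where 23.3% of all genes were. At least 2-fold lower were 5 (33.3%, beside 25.8% of all genes), 1 of them the MLX partner *Mlxip* (59.8 and 145 RPKM). *Hif1a*, the oxygen-regulated subunit, had 1823 RPKM in ES cells and 2039 in forebrain. *Vhl* (432 and 1161 RPKM) and *Egln1* (135 and 544 RPKM), which act in its degradation, were 2.68-fold and 4.02-fold higher in forebrain. *Myc* (235 and 178 RPKM) and *Mycn* (599 and 694 RPKM) were within 2-fold, and *Mycl1* had 395 and 910 RPKM. Of 15 genes known to be induced by hypoxia, 4 were at least 2-fold higher in ES cells (2 to 5 over the scalings) and 5 at least 2-fold lower, some of them members of the lists above. These shares of 26.7% and 33.3% are near the 23.3% and 25.8% of all genes. *Vegfa*, the endothelial growth factor, had 30.4 RPKM in ES cells and 371 in forebrain, or 11.8-fold higher in forebrain. *Kdm3a* (2522 and 1222 RPKM, 2.06-fold) and *Ndrg1* (62.2 and 28.0 RPKM, 2.18-fold) had the direction of the glycolytic genes, but were below 2-fold under some scalings. *Bnip3* (274 and 143), *P4ha1* (813 and 1265) and *Ddit4* (402 and 362) were within 2-fold on the deposited scale.

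**Figure D5:**
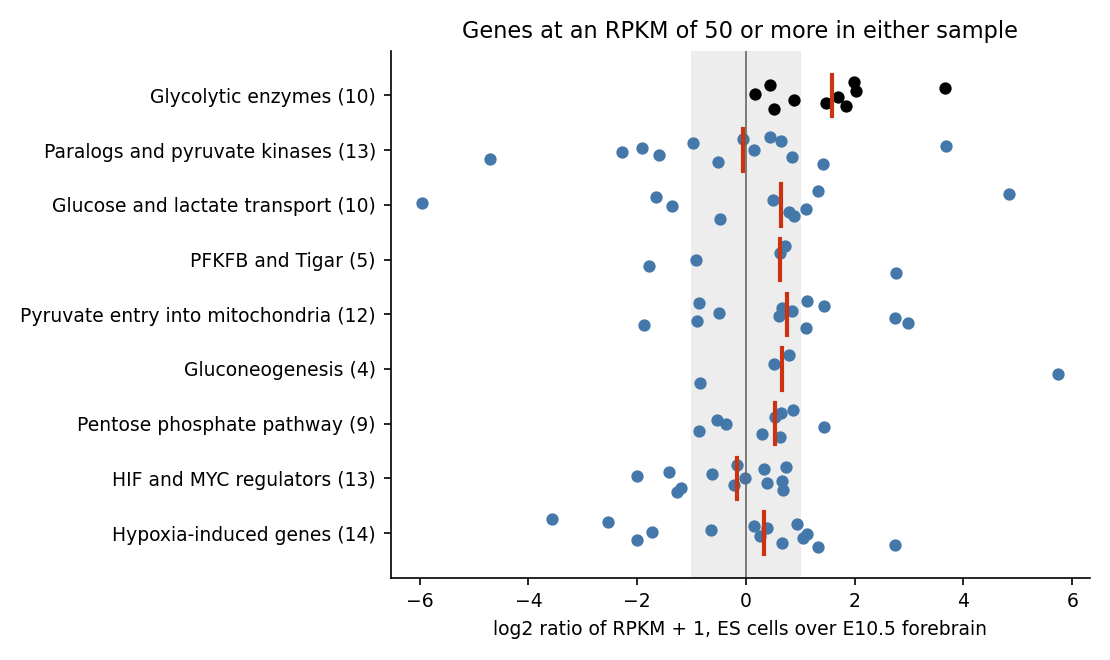
log2 ratio of RPKM + 1, ES cells over E10.5 forebrain, of each gene that reached 50 RPKM in ES cells or forebrain, grouped by list with the number of genes in brackets, with red lines at the medians and a grey band for differences under 2-fold. The 10 glycolytic genes all lie above 0 (0.17 to 3.65), whereas every other list has genes on both sides.

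Promoter windows were examined as a shared feature that the choice of genes did not use. Windows of 300 bases, from 250 before to 50 after each start in RefSeq (GRCm38.p6), were found for all 10 genes. The core letters of the HIF site, ACGTG on either strand, occur in windows of 6 genes (*Hk2*, *Aldoa*, *Gapdh*, *Pgk1*, *Pgam1* and *Ldha*), where 21.8% of all 27025 genes have them. The E-box CACGTG, the MYC site, which contains ACGTG on both strands, occurs for *Ldha* alone of the 10, and for 8.09% of all genes. The GC box GGGCGG occurs for all but *Gapdh*, that is 9 of 10, and for 38.2% of all genes. Windows of the 10 genes held 52.7% to 69.0% GC, against 53.8% over all windows. *Pfkp* and *Tpi1* are printed as the genes of the widest and the narrowest ratio, and *Ldha* as the gene with both of the first motifs, with capitals at matches to the 3 motifs on either strand.
Pfkp (GRCm38.p6, chr13:6648722-6649021, minus strand): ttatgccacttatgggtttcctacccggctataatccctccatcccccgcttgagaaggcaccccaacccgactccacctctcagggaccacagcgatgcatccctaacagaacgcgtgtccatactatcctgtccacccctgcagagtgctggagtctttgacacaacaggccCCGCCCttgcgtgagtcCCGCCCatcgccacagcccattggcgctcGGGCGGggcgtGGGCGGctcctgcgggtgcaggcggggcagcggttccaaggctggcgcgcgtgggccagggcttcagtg
Tpi1 (GRCm38.p6, chr6:124814109-124814408, minus strand): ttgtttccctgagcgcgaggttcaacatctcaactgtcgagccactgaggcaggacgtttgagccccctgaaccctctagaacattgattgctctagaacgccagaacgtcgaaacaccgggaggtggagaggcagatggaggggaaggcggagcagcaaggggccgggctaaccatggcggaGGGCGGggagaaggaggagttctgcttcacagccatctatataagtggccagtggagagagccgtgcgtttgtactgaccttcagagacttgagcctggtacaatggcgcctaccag
Ldha (GRCm38.p6, chr7:46845554-46845853, plus strand): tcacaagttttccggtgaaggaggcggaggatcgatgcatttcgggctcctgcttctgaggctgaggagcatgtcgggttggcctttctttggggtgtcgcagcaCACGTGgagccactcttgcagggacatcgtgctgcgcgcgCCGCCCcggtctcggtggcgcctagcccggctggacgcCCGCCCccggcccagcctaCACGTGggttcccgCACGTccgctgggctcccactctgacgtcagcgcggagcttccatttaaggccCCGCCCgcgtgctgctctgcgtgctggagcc
*Pfkp* has neither ACGTG nor CACGTG in its window. The printed window of *Ldha* has 5 matches to ACGTG and 2 to CACGTG, where each CACGTG counts for ACGTG on both strands. A relation of these motifs to the ratios was not tested. A match is a run of letters here and not a site shown to be bound.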

How the data were processed

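The authors deposited 1 RPKM value per gene for each of the 2 samples, from reads mapped to NCBIM37 (mm9). The submitters' processing notes name Bowtie 0.12.7, the labels give reads of 100 bp and the study's methods 50 bp. The pipeline version, the annotation, the scaling per sample and the treatment of reads with several positions are not given in the sources used here. The scaling was not one per total of reads.

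The 29311 genes were matched to the annotation of this build by identifier and coordinates. The step of 1 read was estimated on low values of genes with at most 2500 bp of exon (1.22 RPKM kb in ES cells, 0.819 in forebrain). Within 0.05 of a whole read lay 66.5% of 4393 values in ES cells and 69.3% of 4199 in forebrain. Inferred reads are therefore estimates, used for intervals and sums. Folds are of RPKM + 1, counted from 2-fold, without a filter, and with 1 sample per group no test was made. The step and the fold count were tried on simulated data made of whole reads only. Such data lack the values between whole reads found here, so they do not check the step for those. Near-identical entries came from blastn 2.17.0, run against listed genes only.

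The members and lists were chosen with earlier results of these data known. Named were the 10 genes, list genes that reached 50 RPKM in ES cells or forebrain and entries with at least 100 reads. Not every gene that meets this is described. *Hk3* and *Ldhc* are below this and appear only as names within a count, and *Eno2*, *Gm13394* and the overlapping genes on the other strand were named after their values were seen. Scripts ran in Python 3.11.15 with pandas 2.3.3, numpy 2.4.6 and scipy 1.17.1, and plots were drawn with matplotlib 3.10.9. A paralog and some sequences are not reported here.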

Additional observations from a re-analysis of the deposited data

How the results depend on the processing

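The count of 6 glycolytic genes at least 2-fold higher in ES cells, and of 0 at least 2-fold lower, was the same with pseudocounts of 0.1 and 5, under each scaling, with near-identical entries added and with a filter at 10 RPKM in either sample. It was 7 at 1.5-fold and 5 at 3-fold. The median log2 difference of 1.59 was 1.31 with scaling by the sum of values, 1.49 with scaling by inferred reads, and 1.46 with the reads of near-identical entries added. Chosen after seeing the data were entries aligned over at least 300 bases only (1.46), scaling by inferred reads without erythroid markers (1.48), the longest coding transcript as the length, and a restriction to the 4 genes without near-identical entries (median 2.00, with 3 of 4 at least 2-fold higher). No direction of these summaries reversed. Of the single genes, *Tpi1* came out at 0.928 under scaling by the sum. The filter left 22093 genes, of which 22.7% were at least 2-fold higher in ES cells and 26.3% lower. No paired analysis was possible because each group has 1 sample, and no replicate could be left out. Depth limited none of the 10 genes, each with over 1000 reads in both samples, while biological variation was not measured.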
